A study of Mus musculus with 8 samples.

Results

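Imprinted growth regulators were examined as a set of 10 genes in primary cardiac fibroblasts treated with TGF-β1, the cytokine best known for turning fibroblasts into matrix-secreting cells, and in untreated ones. The genes were Dlk1, Peg3, Mest, Plagl1, Grb10, Nnat, Ndn, Gnas, Sgce and Phlda2. By gene name each matched 1 of the 56748 rows of the deposited count table. They were chosen with earlier results of these data known. Both groups were wild-type fibroblasts from hearts of C57BL/6J mice aged 1 day and grown in serum-containing medium. One group received TGF-β1 at 10 ng/mL for 48 h (4 libraries) and the other nothing (4 libraries). The design text describes replicates as isolates from different litters, and the cells were selected only by adherence, so that other heart cells can be present. RNA was enriched by its poly(A) tail and counted per gene.

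Imprinted genes are transcribed mainly from the copy inherited from 1 parent, because a methylation mark set in the egg or sperm makes the parental copies differ. Many of them act on fetal growth, and as a rule paternally expressed genes promote growth while maternally expressed genes restrain it. A network of these genes is highly expressed in fetal and newborn mouse tissues, the heart among them, and is lowered after birth. In the mouse, Dlk1, Peg3, Mest, Plagl1, Nnat, Ndn and Sgce are expressed from the paternal copy. Phlda2 is expressed from the maternal copy, and so is Grb10 outside the brain. Gnas gives several products from different first exons, of which the stimulatory G protein α subunit comes from both copies in most tissues. The mice are inbred, so the copies cannot be told apart here, and every value below is the sum over both copies and over all transcripts of a gene.

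Library totals ran from 14340740 to 17176898 counts. In untreated replicate 1 ribosomal RNA was only 0.0322% of counts, whereas TGF-β1 libraries held 1.05% to 2.47% and the other three untreated ones 2.05% to 2.40%. By mean chi-square per gene, with ribosomal RNA genes included, that library lay furthest from its group. It stood at 28.2 to 32.1 against the other untreated libraries, which differed from each other by 2.96 to 3.21. TGF-β1 libraries differed from each other by 3.24 to 11.1. How much of these values comes from the ribosomal RNA genes was not tested, so they are not a separate sign of deviation. Without untreated replicate 1 the calls below stood for 7 of the 10 genes, all but Gnas of those called (edgeR adjusted p = 0.0637 for Gnas). The Gnas call was also lost on leaving out any other untreated library, or TGF-β1 replicate 1, 3 or 4. The fibroblast label was checked on 8 marker genes, all of which passed the count filter, 2 of which rose and 5 fell. Their summed level was 19669 to 21350 CPM in TGF-β1 cultures and 15351 to 16878 CPM in untreated ones, where CPM is the count after each scaled library total is set to 1e+06. Most of this sum came from Col1a1 (means 10701 CPM in TGF-β1 and 6974 CPM in untreated cultures), Col1a2 (5000 and 3763 CPM) and Vim. Col1a1 and Col1a2 rose and Vim was not called, while Pdgfra, Tcf21, Dcn, Lum and Thy1 fell. Of 8 cardiomyocyte markers, 8 fell and none rose, and their summed level was 405.9 to 487.4 CPM in TGF-β1 cultures and 738.6 to 802.5 CPM in untreated ones. Of 6 markers of dividing cells, 6 fell, and their summed level was 36.9 to 43.3 CPM in TGF-β1 cultures and 262.8 to 290.3 CPM in untreated ones. Epicardial and mesothelial markers fell in 3 of 6 cases and rose in none, 3 of 4 tested mural markers rose while 1 fell, and endothelial markers rose in 2 of 6 and fell in 1. Among macrophage markers 1 of 6 rose and 1 fell. Whether these shifts have a part in the changes below was not tested. In bulk RNA, fewer cells of a type and less RNA per cell cannot be told apart.

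Of the 10 genes, 9 passed the count filter, and 7 of these fell with TGF-β1 while 1 rose (quasi-likelihood test of edgeR, p adjusted after Benjamini and Hochberg over 13960 genes and under 0.05). Over all genes tested 36.0% were called, 18.5% lower and 17.6% higher. The genes that fell were Dlk1, Plagl1, Mest, Peg3, Nnat, Gnas and Sgce, and the gene that rose was Grb10. Ndn was not called, and Phlda2 was too low to test. Of the 10 genes, 2 (Dlk1 and Plagl1) fell by 2-fold or more, as did 4.63% of all genes tested. In 7 of the 9 tested genes the TGF-β1 and untreated libraries did not overlap, which holds for 33.9% of all genes tested. The median log2 fold change was −0.47 over the 9 genes and 0.01 over all genes tested. Because the 10 genes were chosen with earlier results of these data known, these contrasts with all genes only describe the set. The 7 paternally expressed genes together summed to 507.9 to 522.0 CPM in TGF-β1 cultures and 720.4 to 746.5 CPM in untreated ones. Plagl1 made up the largest part of this fall, at a mean of 102.9 CPM in TGF-β1 and 228.3 CPM in untreated cultures. Peg3 came next (73.0 and 117.8 CPM), and Ndn was not lower (175.7 and 167.2 CPM). All calls other than that of Gnas held in each of the 19 alternative analyses.

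**Figure D1:**
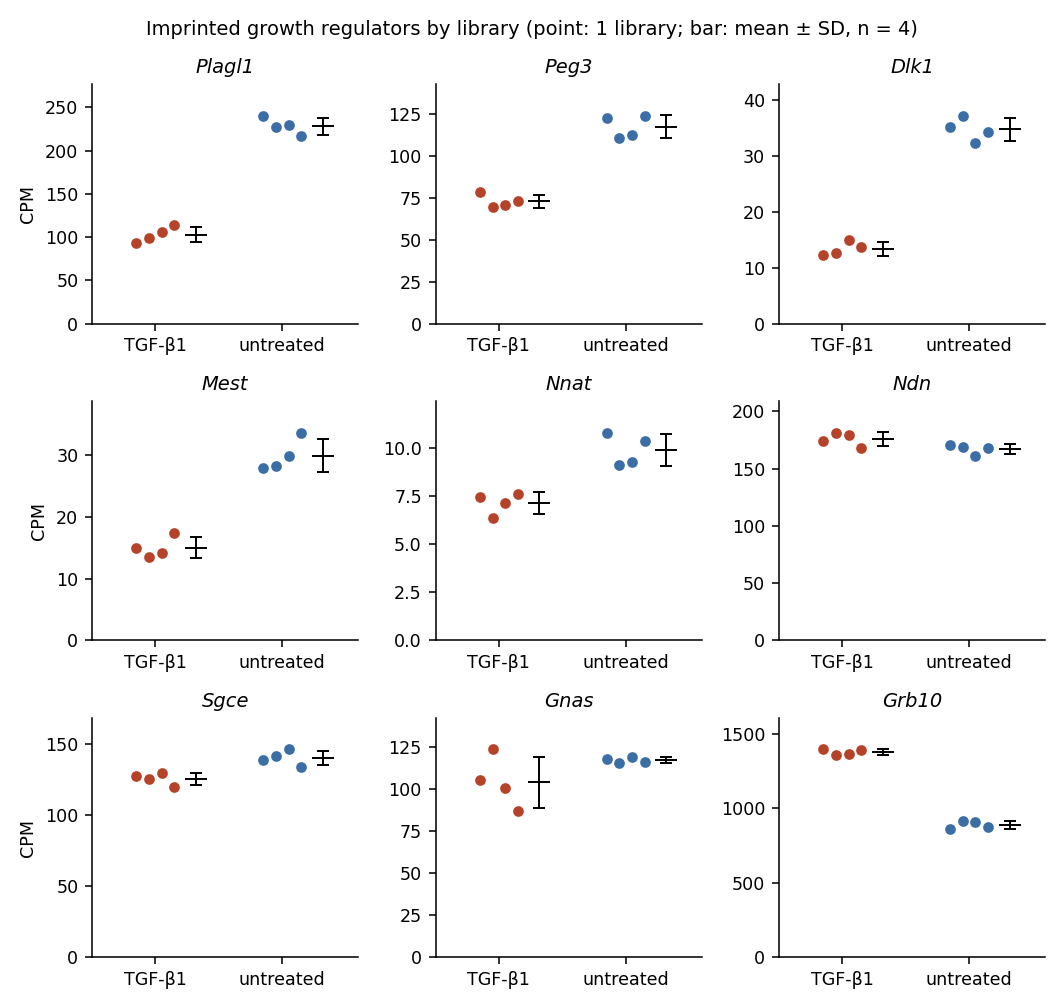
Level of the 9 tested imprinted growth regulators in each library, in CPM on a linear axis from 0. Points are libraries and bars give the mean ± SD of 4. Plagl1, Peg3, Dlk1, Mest, Nnat and Sgce lie lower in every TGF-β1 library than in any untreated one, Grb10 lies higher, and the groups overlap for Ndn and Gnas.

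**Figure D2:**
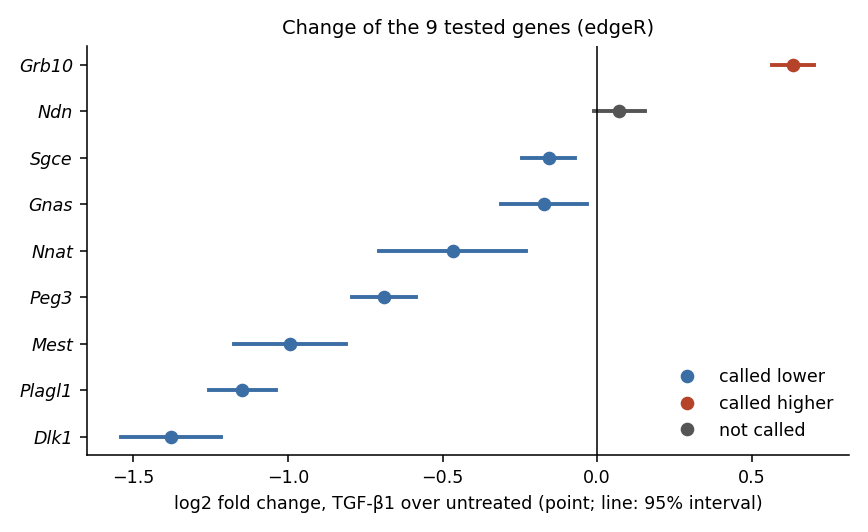
Fitted log2 fold change, TGF-β1 over untreated, with its 95% interval, for the 9 tested genes in order of size. Dlk1 is lowest at −1.38 and Grb10 highest at 0.63, and the interval of Ndn spans 0.

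Compared per length, as FPKM of the authors (counts divided by gene length and library size), the genes spanned a wide range. In TGF-β1 cultures the order was Grb10 (148.9), Ndn (46.8), Plagl1 (12.9), Sgce (11.6), Gnas (9.0), Peg3 (5.28), Nnat (3.85), Mest (3.73), Dlk1 (2.33) and Phlda2 (0.0544 FPKM). In untreated cultures it was Grb10 (96.0), Ndn (44.5), Plagl1 (28.7), Sgce (12.96), Gnas (10.1), Peg3 (8.51), Mest (7.45), Dlk1 (6.06), Nnat (5.33) and Phlda2 (0.145 FPKM). Among the 9 tested genes the SD over 4 libraries was 0.209 to 1.91 FPKM in TGF-β1 cultures and 0.132 to 2.61 FPKM in untreated ones. Neighbours in the order whose libraries overlapped were Plagl1 with Sgce and Nnat with Mest in TGF-β1 cultures, and Peg3 with Mest and Dlk1 with Nnat in untreated ones. Grb10 lay at or above 98.0% of tested genes in TGF-β1 cultures and 96.8% in untreated ones. Dlk1 lay at or above 34.2% of tested genes in TGF-β1 cultures and 55.1% in untreated ones. The gene length behind these values counts all exons of a gene, which lowers the FPKM of loci with many alternative exons such as Gnas.

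Promoters are shown because several of these genes start inside the region that carries the parental mark. In the mouse, ZFP57 binds the methylated hexamer TGCCGC there and protects the mark. RefSeq windows of 250 bases before to 50 bases after the start (GRCm38.p6) were found for 9 of the 10 genes. The hexamer was searched on both strands. It stood in 5 of 15 windows, which belong to 4 genes, and in 11.6% of 32851 windows of all genes. The hexamer itself holds a CpG, and most of the 15 windows lie above the median CpG ratio of all windows. The shares are not matched for CpG content, so they do not show an excess of the hexamer. Windows of 1 gene can overlap: 2 of the 5 are nearly the same stretch of Mest with the same hexamers, and a pair of Gnas windows without it overlap too, so the shares are not of independent sequences. In the windows below it is in capitals on whichever strand it lies, and Dlk1, the gene that fell most, is given as a window without it.
Mest, chr6:30737800-30738099, plus strand: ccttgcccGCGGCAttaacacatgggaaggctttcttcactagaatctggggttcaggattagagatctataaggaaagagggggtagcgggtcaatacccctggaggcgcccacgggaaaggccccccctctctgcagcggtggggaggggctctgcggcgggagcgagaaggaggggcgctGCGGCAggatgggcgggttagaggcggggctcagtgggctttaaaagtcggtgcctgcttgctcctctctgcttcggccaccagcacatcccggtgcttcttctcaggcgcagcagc
Plagl1, chr10:13090582-13090881, plus strand: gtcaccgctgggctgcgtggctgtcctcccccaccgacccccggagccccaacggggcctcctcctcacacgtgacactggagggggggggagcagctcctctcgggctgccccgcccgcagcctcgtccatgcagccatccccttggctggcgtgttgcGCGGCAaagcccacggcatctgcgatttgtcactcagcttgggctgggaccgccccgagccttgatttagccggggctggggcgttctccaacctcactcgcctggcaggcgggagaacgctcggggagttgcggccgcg
Nnat, chr2:157559828-157560127, plus strand: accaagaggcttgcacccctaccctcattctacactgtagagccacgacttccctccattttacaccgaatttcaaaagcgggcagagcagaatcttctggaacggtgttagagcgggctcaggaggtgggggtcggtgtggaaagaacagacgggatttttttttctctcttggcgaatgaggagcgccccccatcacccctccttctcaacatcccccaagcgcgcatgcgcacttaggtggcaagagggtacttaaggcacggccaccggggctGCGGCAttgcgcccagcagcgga
Grb10, chr11:12037371-12037670, minus strand: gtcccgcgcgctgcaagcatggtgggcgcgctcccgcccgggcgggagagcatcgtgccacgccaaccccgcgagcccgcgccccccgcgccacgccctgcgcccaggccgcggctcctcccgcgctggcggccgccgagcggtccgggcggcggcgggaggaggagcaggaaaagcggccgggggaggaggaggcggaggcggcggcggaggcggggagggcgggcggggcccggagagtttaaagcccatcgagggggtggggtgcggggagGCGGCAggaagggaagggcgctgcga
Dlk1, chr12:109452573-109452872, plus strand: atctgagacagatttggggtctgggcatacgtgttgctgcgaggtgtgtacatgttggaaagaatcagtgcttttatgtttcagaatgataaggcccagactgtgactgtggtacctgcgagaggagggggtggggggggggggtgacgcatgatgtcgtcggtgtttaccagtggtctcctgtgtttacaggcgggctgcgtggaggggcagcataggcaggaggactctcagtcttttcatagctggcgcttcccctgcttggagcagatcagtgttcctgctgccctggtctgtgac
The Mest window held the hexamer in 2 places, and those of Plagl1, Nnat and Grb10 in 1 place each. The windows also differed in CpG content. The ratio of observed to expected CpG was 0.590 for Mest, 0.696 for Plagl1, 0.690 for Nnat, 0.973 for Grb10 and 0.427 for Dlk1, against a median of 0.384 over all windows. Windows without the hexamer that are not shown ranged widely too. They were at 0.819 for Phlda2, 0.623 for Ndn, 0.46 for Peg3 and 0.650, 0.871, 0.903 and 0.839 for Gnas. The other windows of Grb10 and Mest were at 0.446 and 0.327. Genes that hold the hexamer here include ones that fell (Mest, Plagl1, Nnat) and the one that rose (Grb10). Other windows of Grb10 (chr11:12027922-12028221) and Mest (chr6:30733256-30733555) do not hold it. Whether any window shown lies in a region that carries the parental mark was not tested. The letters CAGAC, part of sites bound by SMAD proteins, stood in 3 places in the Dlk1 window and 1 in the Nnat window, and in none of the Mest, Plagl1 and Grb10 windows shown. They occur in 49.6% of all windows, and a match or its lack is a description only.

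Plagl1 encodes a zinc-finger transcription factor that restrains cell division and, in the mouse, acts on other imprinted genes (ENSMUSG00000019817, GRCm39 chromosome 10, 12936248 to 13007438, plus strand). It had 92.8, 98.9, 106.1 and 113.7 CPM in TGF-β1 cultures, against 240.4, 227.0, 229.6 and 216.3 CPM in untreated cultures. Every TGF-β1 library was lower than every untreated one, by a wide margin. The means were 102.9 ± 9.04 and 228.3 ± 9.88 CPM (SD, n = 4 each), a log2 fold change of −1.15 ± 0.05 (SE, adjusted p = 6.91e-14 by edgeR). Plagl1 was thus 2.22-fold lower, with a 95% interval of its log2 fold change of −1.26 to −1.04. It had the smallest p of the 9 genes.

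Peg3, which encodes another large zinc-finger protein (ENSMUSG00000002265, chromosome 7, 6706891 to 6733430, minus strand), also fell. It had 78.6, 69.9, 70.7 and 73.1 CPM in TGF-β1 cultures, against 123.0, 111.2, 112.6 and 124.3 CPM in untreated cultures. The groups did not overlap, and the spread within each was small. The log2 fold change was −0.69 ± 0.05 (SE, adjusted p = 1.42e-10 by edgeR), a percent change of −38.0% in level.

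Dlk1 encodes a membrane protein with epidermal growth factor repeats, related to Notch ligands and known for holding back adipocyte differentiation (ENSMUSG00000040856, chromosome 12, 109418749 to 109429262, plus strand). It showed the largest change of the 9 genes. Dlk1 had 12.3, 12.7, 15.0 and 13.7 CPM in TGF-β1 cultures, against 35.3, 37.3, 32.3 and 34.4 CPM in untreated cultures. The groups were far apart, at means of 13.4 ± 1.21 and 34.8 ± 2.05 CPM (SD, n = 4 each). The log2 fold change was −1.38 ± 0.08 (SE, adjusted p = 2.72e-12 by edgeR), so that Dlk1 was 2.60-fold lower. By the size of its log2 fold change Dlk1 ranked 465 among 13960 tested genes.

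Mest encodes an endoplasmic reticulum protein of the α/β-hydrolase fold that is linked to fat cell and fetal growth (ENSMUSG00000051855, chromosome 6, 30723546 to 30748464, plus strand). It had 15.0, 13.5, 14.1 and 17.4 CPM in TGF-β1 cultures, against 27.8, 28.3, 29.8 and 33.6 CPM in untreated cultures. All TGF-β1 libraries were lower than the lowest untreated one. The log2 fold change was −0.99 ± 0.09 (SE, adjusted p = 4.04e-09 by edgeR), or 1.99-fold lower. The count is uncertain in part, because in GENCODE M39 Copg2 exons on the opposite strand cover 47.7% of the 8070 exonic bases of Mest. The gene model counted has 3945 exonic bases and ends at 30748464, against 30752058 in GENCODE M39. The share that applies to this count is therefore not known. No source used here says whether reads were counted by strand. Copg2 rose in the same libraries (0.30 ± 0.06, edgeR adjusted p = 0.000167).

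Nnat, which encodes neuronatin, a small proteolipid of the endoplasmic reticulum membrane, was the lowest of the tested genes in CPM (ENSMUSG00000067786, chromosome 2, 157401998 to 157404442, plus strand). It had 7.48, 6.36, 7.18 and 7.63 CPM in TGF-β1 cultures, against 10.8, 9.15, 9.30 and 10.4 CPM in untreated cultures. The groups did not overlap, though the gap was narrow, and only 92 to 174 reads per library lay behind these values. The log2 fold change was −0.47 ± 0.11 (SE, adjusted p = 0.0026 by edgeR).

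Ndn and Sgce moved little. Ndn encodes necdin, a protein of the MAGE family that binds E2F1 and p53 and restrains growth (ENSMUSG00000033585, chromosome 7, 61996317 to 62000010, plus strand). It had 174.4, 181.4, 179.7 and 167.5 CPM in TGF-β1 cultures, against 170.7, 169.1, 160.9 and 168.0 CPM in untreated cultures. The groups overlapped, and Ndn was not called (log2 fold change 0.07 ± 0.04, SE, adjusted p = 0.167 by edgeR). The 95% interval of −0.01 to 0.15 does not reach the fitted value of any other paternally expressed gene of the set. With library totals in place of scaling factors the sign turned (−0.01, edgeR adjusted p = 0.897). Sgce encodes ε-sarcoglycan, a membrane protein of the dystrophin-glycoprotein complex (ENSMUSG00000004631, chromosome 6, 4674350 to 4747207, minus strand). It had 127.5, 125.2, 129.3 and 119.6 CPM in TGF-β1 cultures, against 138.4, 141.6, 145.9 and 133.5 CPM in untreated cultures. The groups lay next to each other without overlap, and the log2 fold change was −0.16 ± 0.04 (SE, adjusted p = 0.00456 by edgeR).

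Gnas (ENSMUSG00000027523, chromosome 2, 174126113 to 174188537, plus strand) had 105.5, 123.6, 100.5 and 87.0 CPM in TGF-β1 cultures, against 118.0, 115.5, 119.3 and 116.1 CPM in untreated cultures. The untreated libraries were tight and the TGF-β1 libraries wide, with TGF-β1 replicate 2 above every untreated library and the other three below. The log2 fold change was −0.17 ± 0.07 (SE, adjusted p = 0.0493 by edgeR), just past the threshold. The call was lost in 12 of the 19 alternative analyses, and it rests most on TGF-β1 replicate 4, without which the log2 fold change was −0.09 (edgeR adjusted p = 0.226). Without TGF-β1 replicate 2 it was −0.26.

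Grb10 encodes an adaptor protein that binds the insulin and insulin-like growth factor (IGF) receptors and dampens their signal, and it restrains fetal growth in the mouse (ENSMUSG00000020176, chromosome 11, 11880508 to 11988683, minus strand). It was by far the most abundant of the 10 genes and the only one called higher. Grb10 had 1394, 1357, 1365 and 1387 CPM in TGF-β1 cultures, against 859.6, 910.8, 905.0 and 871.4 CPM in untreated cultures. The groups were well separated, with a coefficient of variation of 1.28% in TGF-β1 cultures and 2.82% in untreated ones. The log2 fold change was 0.63 ± 0.03 (SE, adjusted p = 7.35e-13 by edgeR), or 1.55-fold higher. Because of Grb10, the summed level of all 10 genes was 1987 to 2007 CPM in TGF-β1 cultures and 1708 to 1750 CPM in untreated ones. Phlda2, which encodes a small pleckstrin homology domain protein that limits placental growth (ENSMUSG00000010760, chromosome 7, 143055282 to 143056887, minus strand), had 0, 1, 0 and 3 reads in TGF-β1 libraries, against 2, 2, 5 and 1 reads in untreated libraries. A difference was not detectable at this depth.

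Beside the 10 genes, a list of 66 further gene symbols was examined, of which 47 were tested. They are genes reported as imprinted in the mouse, some in certain tissues only, or neighbours in imprinted domains. Whether each is imprinted in these cultures was not tested, and they are called further imprinted genes only for short. This list too was chosen with earlier results of these data known. Of the 47 tested, 11 rose and 12 fell, 48.9% in all, where 36.0% of all genes tested were called, and their median log2 fold change was 0.00. With library totals in place of scaling factors 7 rose and 14 fell. The strongest by p were Peg10, Meg3, H19, Dcn, Rian, Phactr2, Tfpi2 and Snrpn. H19, the maternally expressed noncoding RNA next to Igf2, had 19.4, 18.1, 15.2 and 14.2 CPM in TGF-β1 cultures, against 31.1, 32.8, 28.2 and 30.5 CPM in untreated cultures. Every TGF-β1 library was lower, and the log2 fold change was −0.88 ± 0.09 (SE, adjusted p = 3.72e-08 by edgeR). Igf2, the paternally expressed growth factor gene of that domain, was named after its values were seen. It was near the limit of detection, at 0.902 ± 0.342 CPM in TGF-β1 cultures and 1.01 ± 0.262 CPM in untreated ones (SD, n = 4 each), and was not called (edgeR adjusted p = 0.799).

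Imprinted genes lie in domains, so the tested neighbours of each gene were set beside it. In the Dlk1 domain, the maternally expressed noncoding RNAs Meg3 (−0.50 ± 0.05) and Rian (−0.44 ± 0.05) fell together with Dlk1 (edgeR log2 fold changes ± SE, adjusted p = 2.67e-08 and 3.05e-07). Mirg also passed the test (−0.48 ± 0.16, edgeR adjusted p = 0.0209), but its call was lost in 5 of 19 alternatives, among them those without TGF-β1 replicate 1 (edgeR adjusted p = 0.0555) or 4 (0.0557) and without untreated replicate 1 (0.0622) or 4 (0.0772). Meg3 had 108.3, 99.2, 105.3 and 101.3 CPM in TGF-β1 cultures, against 162.2, 142.3, 136.7 and 144.5 CPM in untreated cultures. The paternally expressed Rtl1, at about 1 CPM in TGF-β1 cultures, was at −0.63 ± 0.27 and was not called (edgeR adjusted p = 0.0692, or 0.0426 with library totals). Genes from both parental copies of the domain were thus lower. Dlk1 fell more than its neighbour. The log2 ratio of Dlk1 to Meg3 counts within a library, which no scaling can change, was −2.95 ± 0.14 in TGF-β1 cultures and −2.07 ± 0.11 in untreated ones (SD, n = 4 each), a difference of −0.88 ± 0.09 (SE). An exact two-sided permutation test over 70 assignments gave p = 0.0286, the smallest that this design allows, and 0.0321 adjusted over 9 such ratios. These ratios, here and below, were added after the data were seen and largely restate the fitted changes of their genes. Their p-values describe how the groups separate and are not independent support.

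In the Sgce domain, Peg10, a retrotransposon-derived gene that lies head to head with Sgce and is also paternally expressed, fell more than Sgce did. Peg10 had 114.2, 111.7, 119.1 and 129.5 CPM in TGF-β1 cultures, against 196.9, 201.8, 193.5 and 195.8 CPM in untreated cultures. Its groups were far apart (log2 fold change −0.73 ± 0.04, SE, adjusted p = 9.43e-12 by edgeR). The log2 ratio of Sgce to Peg10 was 0.08 ± 0.13 in TGF-β1 cultures and −0.49 ± 0.06 in untreated ones (SD, n = 4 each), a difference of 0.58 ± 0.07 (SE, exact permutation p = 0.0286, adjusted 0.0321). Further out in the domain, Ppp1r9a (−0.61 ± 0.12) and Pon3 (−0.31 ± 0.06) fell, and Tfpi2, a protease inhibitor gene, rose (0.75 ± 0.12). Asb4 (−0.25 ± 0.26), Pon2 (0.12 ± 0.05) and Casd1 (0.01 ± 0.06) were not called.

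**Figure D3:**
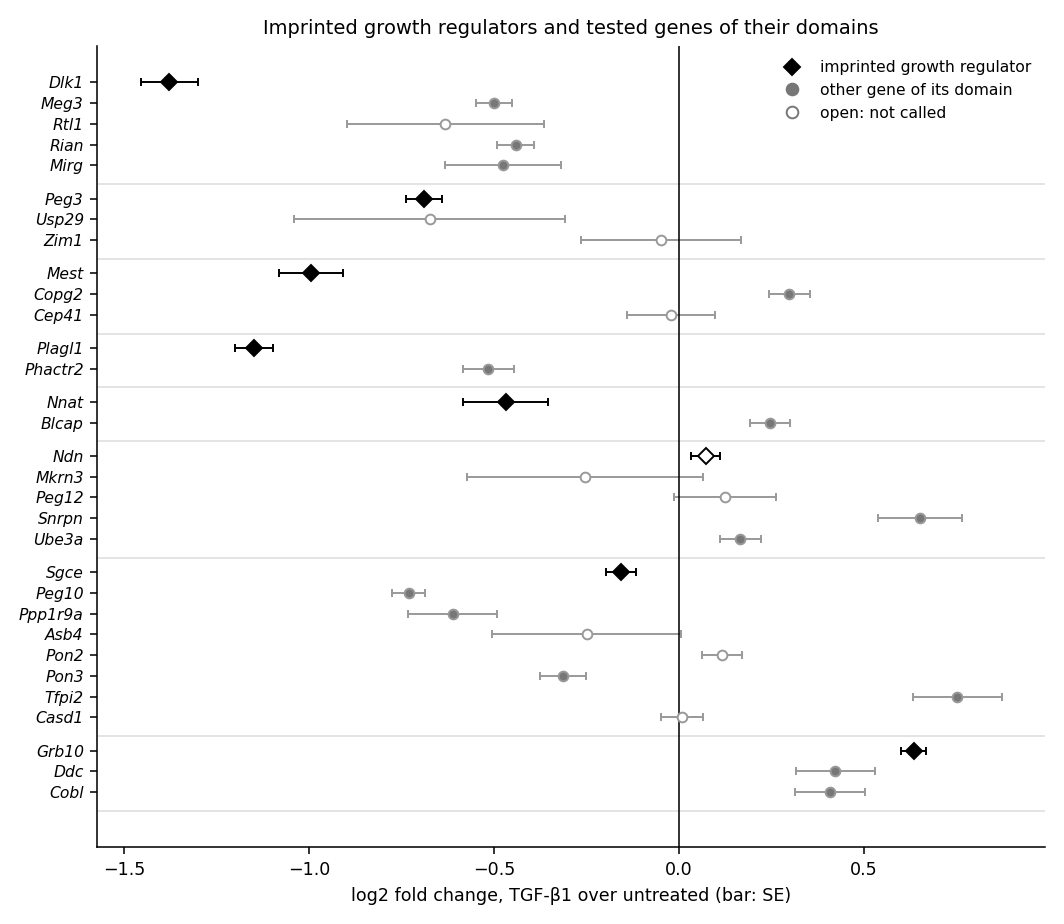
Log2 fold change, TGF-β1 over untreated, with its SE, of 8 imprinted growth regulators (diamonds) and the tested genes of their domains (circles), with open symbols for genes that were not called. Dlk1 and its neighbours all lie below 0, Grb10 and its neighbours above 0, and the Mest, Nnat and Sgce domains hold genes on both sides.

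Called neighbours that moved the other way, as Tfpi2 did, were also found beside Mest and Nnat. Copg2, whose exons overlap those of Mest, had 52.5, 52.8, 57.6 and 57.5 CPM in TGF-β1 cultures, against 42.9, 43.5, 45.4 and 47.5 CPM in untreated cultures. The log2 ratio of Mest to Copg2 was −1.89 ± 0.14 in TGF-β1 cultures and −0.59 ± 0.06 in untreated ones (SD, n = 4 each), a difference of −1.30 ± 0.08 (SE, exact permutation p = 0.0286, adjusted 0.0321). Blcap, in whose intron Nnat lies, rose by 0.25 ± 0.05 on the log2 scale (SE, adjusted p = 0.000915 by edgeR). The log2 ratio of Nnat to Blcap was −3.12 ± 0.16 in TGF-β1 cultures and −2.40 ± 0.12 in untreated ones (SD, n = 4 each), a difference of −0.72 ± 0.10 (SE, exact permutation p = 0.0286, adjusted 0.0321). Cep41, a further gene beside Mest, was at −0.02 ± 0.12 and was not called. Exons on the opposite strand also cover 10% or more of the exonic bases of other imprinted or partner genes named in the text, which are Copg2 (34.5%), Phlda1 (33.0%), Cdkn1c (29%), Ube3a (28.5%), Tssc4 (19.6%), Zfp57 (17.5%), Blcap (15.7%), Usp29 (14.3%) and, as given with its value, Trim28. Snrpn and Igf2 share bases mainly with exons on their own strand (13.3% and 58.4%). These shares are over GENCODE M39 exons, and the gene models counted can differ, as for Mest. Counts of all these genes are uncertain to an extent not known here.

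Phactr2, beside Plagl1, fell by 0.52 on the log2 scale (SE 0.07, edgeR adjusted p = 2.71e-06), and Plagl1 fell more, with a change in their log2 ratio of −0.64 ± 0.09 (SE, exact permutation p = 0.0286). Ddc (0.42 ± 0.11) and Cobl (0.41 ± 0.09), on either side of Grb10, both rose. The log2 ratio of Grb10 to Ddc was 6.69 ± 0.11 in TGF-β1 cultures and 6.48 ± 0.19 in untreated ones (SD, n = 4 each), and these overlapped (difference 0.21 ± 0.11, SE, exact permutation p = 0.114). That of Grb10 to Cobl differed by 0.22 ± 0.08 (SE, exact permutation p = 0.0286). Snrpn, a splicing protein gene of the domain that holds Ndn, rose with 12.3, 17.1, 16.8 and 15.4 CPM in TGF-β1 cultures, against 8.50, 9.88, 9.77 and 11.03 CPM in untreated cultures (0.65 ± 0.11, SE, adjusted p = 8.00e-05 by edgeR). Ube3a passed the test at 0.17 ± 0.05 (edgeR adjusted p = 0.0218), but its call was lost in 6 of 19 alternatives, among them library totals (0.274) and those without TGF-β1 replicate 4 (edgeR adjusted p = 0.110) or untreated replicate 2 (0.0873). Mkrn3 (−0.25 ± 0.32) and Peg12 (0.12 ± 0.14) were not called. The log2 ratio of Ndn to Snrpn was 3.52 ± 0.20 in TGF-β1 cultures and 4.10 ± 0.17 in untreated ones (SD, n = 4 each, exact permutation p = 0.0286). Beside Peg3, Usp29 (−0.67 ± 0.37) and Zim1 (−0.05 ± 0.22) were low and not called. In the domain of the undetected Phlda2, 3 of 7 tested genes fell and none rose. The rest, Slc22a18 (−0.14 ± 0.35), Kcnq1ot1 (0.08 ± 0.11), Nap1l4 (0.02 ± 0.05) and Cd81 (−0.06 ± 0.04), were not called. Those that fell were Cdkn1c, a cell cycle inhibitor gene (−0.34 ± 0.10), Tssc4 (−0.23 ± 0.05) and Osbpl5 (−0.19 ± 0.04), and all 7 are named after their values were seen.

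**Figure D4:**
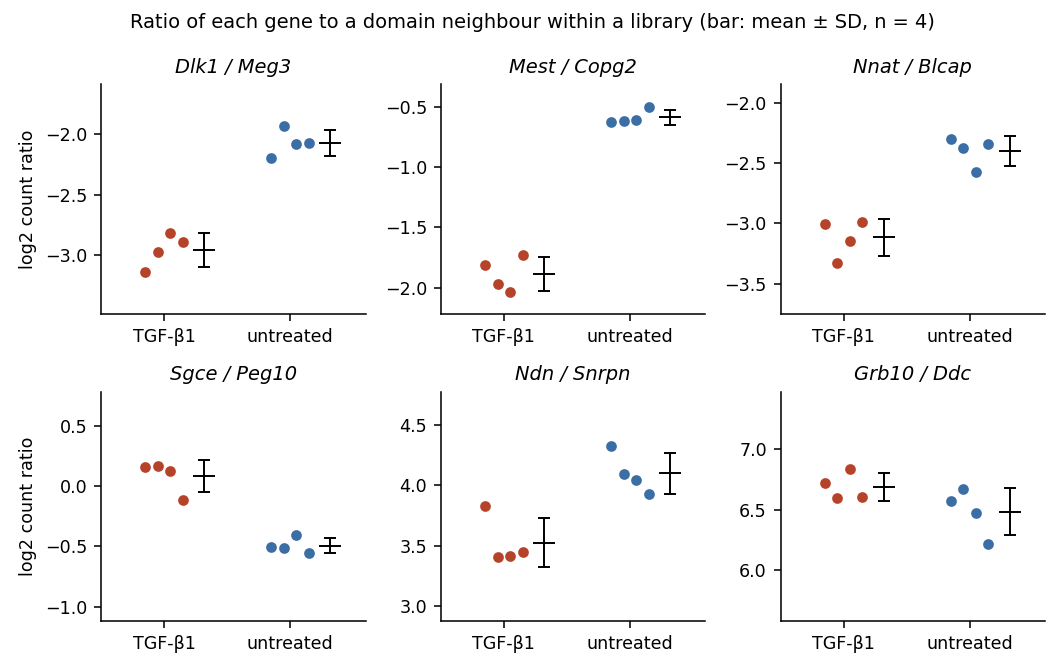
Log2 ratio of the counts of an imprinted growth regulator to those of a neighbour in its domain, by library, with mean ± SD of 4 and axes that span the same range of log2 units in each panel but do not start at 0. Dlk1/Meg3, Mest/Copg2, Nnat/Blcap and Ndn/Snrpn are lower in every TGF-β1 library, Sgce/Peg10 is higher, and Grb10/Ddc overlaps between groups.

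Signalling partners of these proteins and the machinery that keeps imprints were listed as 36 genes, again with earlier results of these data known. Of these, 33 were tested, 4 rose and 12 fell (48.5% called, beside 36.0% of all genes). With library totals none rose and 19 fell. The 8 with the smallest p were Uhrf1, Dnmt1, Notch3, Prkar1a, E2f1, Adcy6, Phlda1 and Prkaca. Igf2 and Igf2r are both on this list and on that of further imprinted genes, so the rise of Igf2r counts in both tallies. Uhrf1 and Dnmt1, which copy DNA methylation at replication, fell most. Uhrf1 had 4.02, 4.42, 5.07 and 4.41 CPM in TGF-β1 cultures, against 27.8, 29.2, 29.4 and 30.5 CPM in untreated cultures, a log2 fold change of −2.70 ± 0.09 (SE, adjusted p = 1.03e-15 by edgeR). Dnmt1 had 34.8, 34.8, 35.7 and 30.2 CPM in TGF-β1 cultures, against 81.8, 82.0, 73.5 and 80.8 CPM in untreated cultures, a log2 fold change of −1.23 ± 0.06 (SE, adjusted p = 1.63e-13 by edgeR). Both are most active in dividing cells, and 6 of 6 markers of dividing cells fell in the same libraries. Their part in this was not tested. Zfp57 itself (−0.26 ± 0.08) and its partner Trim28 (−0.12 ± 0.04) also fell (edgeR adjusted p = 0.0114 for each), with 67.8% of the exonic bases of Trim28 under exons of Chmp2a on the other strand. Both were named after their values were seen.

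Of the receptors that GRB10 binds, Insr, the insulin receptor gene, rose by 0.19 ± 0.05 on the log2 scale (edgeR adjusted p = 0.00367) and Igf1r was not called (0.04 ± 0.04, edgeR adjusted p = 0.487). Igf2r, an imprinted receptor that clears IGF2, rose by 0.14 ± 0.04 (edgeR adjusted p = 0.0152). The Insr call was lost in 1 of 19 alternatives, with library totals (edgeR adjusted p = 0.0914). The Igf2r groups overlapped and its call was lost in 5, which were library totals (0.389), unfiltered limma (0.114) and edgeR without TGF-β1 replicate 1 (0.0598) or untreated replicate 3 (0.0546) or 4 (0.0706). These receptors were named after their values were seen. Of genes in the Gsα pathway, the protein kinase A subunit genes Prkar1a (−0.21 ± 0.03) and Prkaca (−0.21 ± 0.04) and the adenylyl cyclase gene Adcy6 (−0.28 ± 0.05) fell. E2f1, whose product necdin binds, fell by 0.55 on the log2 scale (SE 0.09), and Notch3 fell by 0.57 (SE 0.06). Notch3 is also the mural marker counted above as falling. Whether the shifts in markers of cell types and of dividing cells have a part in these changes was not tested. Phlda1, a relative of Phlda2, fell by 0.36 (SE 0.07). Of 5 other tested genes of the dystrophin-glycoprotein complex, Sgcb fell (−0.17 ± 0.04, edgeR adjusted p = 0.00294), and no other was called.

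The genes whose pattern over the 8 libraries lay closest to each imprinted gene were found by the root mean square difference in centred log2 CPM among 9176 genes of at least 10 CPM. For Dlk1 they were Xdh (0.088) and Pkhd1l1 (0.088 log2 units), and for Plagl1 Ndst3 (0.070) and Gpm6a (0.075). Slc38a4 (0.070) was among the 2 closest to Mest. Those of Peg3 were Frmd6 (0.049) and H6pd (0.052), and those of Nnat Ank1 (0.051) and Lbr (0.055). Grb10 was closest to Thbs1 (0.029) and Loxl2 (0.032), which encode a matrix glycoprotein and a collagen crosslinking enzyme. Gnas was closest to Nop53 (0.051) and Rnf220 (0.060), Sgce to Plekho2 (0.022) and Map3k3 (0.025), and Ndn to Gm13736 and BC004004 (0.016 each). Among the imprinted growth regulators themselves the closest pair was Gnas and Sgce (0.12), while Ndn with Sgce, Dlk1 with Plagl1 and Peg3 with Nnat lay at 0.13 each. These distances mostly follow the size of the difference between groups and describe likeness only.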

How the data were processed

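Poly(A)-enriched RNA of 8 cultures was sequenced. The deposited counts per gene are whole numbers that were not normalized, and the deposited FPKM values of the authors are proportional to count over gene length within each library. The submitters' processing notes list HISAT2, CASAVA, Subread and featureCounts and give no version. They name the GRCm38 build and the design text mm39. Coding genes overlapped their GRCm39 positions in 99.9% of cases and their GRCm38.p6 positions in 16.0%, so gene coordinates are read as GRCm39. Promoter windows from RefSeq are GRCm38.p6.

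Groups came from the labels. Genes were filtered with filterByExpr (minimum count 10, minimum total 15), scaled by TMM and fitted in edgeR 4.0.16 (R 4.3.3, limma 3.58.1) by quasi-likelihood, with group as the only term and a two-sided test. The SE is the size of the log2 fold change over the square root of F. CPM uses TMM-scaled totals. Members and lists were chosen with earlier results of these data known. The text names all 10 genes, the tested genes in the domains of the 9 tested ones, the 8 called genes of smallest p in each further list, and the 2 closest genes in pattern, of which 1 is not reported here. Within-domain ratios were added after the data were seen. Replicate pairs differed by 2.96 to 32.1 times sampling noise (mean chi-square per gene, ribosomal RNA genes included), so none was a duplicate. Untreated replicate 1 was furthest from its group by this measure. Same-numbered replicates did not deviate together. Nothing but the design text says that replicates came from separate litters, and intervals cover the spread between these samples.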

Additional observations from a re-analysis of the deposited data

Results flagged for a closer look

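Among 108 sets of 4 libraries (CPM of named genes and library measures), 4 held a library far from the other three by Dixon's criterion at the 95% level. Chance alone flags some sets at that level, so single ones carry little weight. Ube3a had 76.2 CPM in untreated replicate 2, against 83.8 to 84.3 CPM in the other untreated libraries. Asb4, beside Sgce, had 1.59 CPM in untreated replicate 1, against 2.79 to 2.90 CPM in the others. Dnmt1 had 73.5 CPM in untreated replicate 3, against 80.8 to 82.0 CPM in the others. Ribosomal RNA made up 0.0322% of counts in untreated replicate 1, against 2.05% to 2.40% in the other untreated libraries. Without that library 7 imprinted growth regulators were called in place of 8, Gnas being the one lost (edgeR adjusted p = 0.0637). The loss is not particular to that library. The Gnas call was also lost without untreated replicate 2 (0.0700), 3 (0.0971) or 4 (0.0768), and without TGF-β1 replicate 1 (0.0727), 3 (0.124) or 4 (0.226). The cause of these differences was not tested.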

How the results depend on the processing

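Over 19 alternatives the count of called genes among the 10 stayed at 7 to 8. Dlk1 ranged from −1.46 to −1.08 and Grb10 from 0.55 to 0.65. Gnas was not called with RLE scaling (−0.17, adjusted p = 0.0507), DESeq2 (−0.17, 0.213), limma on log2(FPKM + 1) (−0.16, 0.152), on log2(FPKM + 0.1) (−0.18, 0.149) or on unfiltered log2(FPKM + 1) (−0.16, 0.317), and leaving out 1 library at a time gave −0.26 to −0.092. With library totals, which shifted the median of all genes by −0.08, Ndn was at −0.0091 (reversed), Igf1r at −0.039, Casd1 at −0.074, further imprinted genes rose in 7 cases, partners rose in 0 and fell in 19 cases, and 1301 of all genes rose. Casd1 was at −0.0058 with upper-quartile scaling. In unfiltered limma 1 partner rose. Leaving out 1 library gave 1 to 5 partners that rose (1 without untreated replicate 3, 2 without untreated replicate 4), Casd1 −0.017 to 0.049, Igf1r −0.0036 to 0.068, Cep41 −0.078 to 0.067, Zim1 −0.16 to 0.14 and Igf2 −0.43 to 0.029. The causes were not tested. Same-numbered replicates correlated in their deviations at −0.040 to 0.052, and differently numbered ones at −0.056 to 0.107. No pairing by number was seen, but 4 pairs cannot exclude it. With the replicate block 8 of the 10 genes were called, 1 higher and 7 lower. Of further imprinted genes 10 were then called higher and 12 lower, and of all genes 2416 higher and 2555 lower. Low counts limit Phlda2, Igf2, Zim1, Usp29 and Mkrn3.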
